A study of Homo sapiens with 5 samples.

Results

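The zinc finger gene clusters of human chromosome 19 were examined in DNase-seq peak lists of 5 cell lines of B-lineage malignancies, where a peak marks a stretch of accessible chromatin such as a promoter or enhancer. The clusters were defined by position alone, as 4 intervals in the hg18 build (chr19:19.5-24.4 Mb, 39.5-43.5 Mb, 48.9-49.8 Mb and 57.0-63.8 Mb), with a peak counted as a member if it overlapped an interval. Of 109231 peaks on chromosomes 1 to 22 and X, 5937 lay on chromosome 19 and 1244 in the clusters. The remaining 4693 peaks of chromosome 19 served for comparison. The intervals are called 19p12, 19q13.12, 19q13.31 and 19q13.41-q13.43 after the bands that make up most of each.

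The Hodgkin group held the lines L1236, L428 and L591, and the non-Hodgkin group held Reh, a pro-B lymphoblastic leukaemia line, and Namalwa, a Burkitt lymphoma line. All were untreated cultures used at passage 7, and each line gave 1 library and 1 peak list, so lines are the replicates of a group and the error within a line is not known. The enzyme DNase I, which cuts DNA in open chromatin, was applied at 12 U/ml to L591 and Namalwa and at 6 U/ml to the other lines. The Namalwa list was short, with 5760 peaks, against 23288 to 27925 in the others, and nearly all of it lay inside the Reh list, with 124 of its 125 cluster peaks (99.2%) and 99.3% of its peaks in the rest of chromosome 19 overlapping a Reh peak. The read depth behind the lists is unknown. Copy number was not measured, so extra copies of a stretch and more open chromatin per copy cannot be told apart.

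KRAB zinc finger proteins are transcription repressors that bind DNA through arrays of C2H2 fingers and recruit the corepressor TRIM28, which brings enzymes that methylate histone H3 at lysine 9. Many of them silence transposable elements, as ZNF91 of the 19p12 cluster does for SVA elements. Their genes arose by tandem duplication and stand side by side, and the bodies of the genes are themselves known to carry heterochromatin marks in many cell types while their promoters stay open. In the RefSeq table of the GRCh38.p14 assembly, which was used for names only, 264 of 561 coding genes with a ZNF, ZFP, ZSCAN or ZIM symbol (47.1%) were on chromosome 19, where they made up 18.2% of 1451 coding genes. Of these 264, 240 had another such gene as a direct neighbour, and the longest unbroken run held 27 genes, from ZNF737 to ZNF681. The intervals are not made of zinc finger genes alone, since the LILR and KIR receptor genes of leukocytes, for example, also lie in 19q13.4. Nor was the rest of chromosome 19 checked for zinc finger genes, so it may hold some as well. Genes of the hg18 build were not used here, and peaks are named by position alone.

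Peaks were sparser in the clusters than in the rest of the chromosome in all 5 lines. How well reads align in the duplicated genes was not examined. Reh had 26.9 peaks per Mb in the clusters, against 37.8 in the rest, and Namalwa had 7.53 against 10.5. L1236 had 13.2 peaks per Mb in the clusters, against 25.5 in the rest. L428 had 11.4 against 21.5, and L591 had 15.9 against 25.1. The mean log2 ratio of clusters over rest was -0.70 ± 0.22 (SD, n = 5 lines), and a two-sided exact sign-flip permutation test over the lines gave p = 0.063, the smallest that 5 lines allow. The clusters span 16.6 Mb, and the length of the rest, 38.99 Mb, leaves out the longest stretch with no peak in any line, 8000 kb at 24423191 to 32423520, which takes in the centromere. With that stretch counted in, the mean log2 ratio was -0.43.

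The sparseness was uneven, and 36 of 166 windows of 100 kb in the clusters (21.7%) had no region in any line, against 64 of 392 in the rest (16.3%). In Hodgkin lines the share of empty cluster windows was 51.8% for L1236, 58.4% for L428 and 41.0% for L591, against 35.2%, 34.4% and 27.8% of windows in the rest for the same lines. In Reh 28.3% of cluster windows were empty, against 25.5% in the rest, and in Namalwa 61.4%, against 49.2%. The longest peak-free stretch of the clusters was in 19p12, at 21826861 to 22797320, and covered 970 kb. In 19q13.41-q13.43 a stretch of 713 kb, at 61607831 to 62321310, held no peak. The longest such stretches were 188 kb in 19q13.12, at 42650291 to 42838540, and 107 kb in 19q13.31, at 49023571 to 49130870. Long empty stretches were not particular to the clusters. Apart from the stretch with the centromere, the rest had a longer one, with no region in any window from 35.3 to 37.5 Mb. After overlapping peaks of all lines had been joined, the clusters held 568 merged regions and the rest 2061, with a median distance between neighbouring regions of 9.37 kb in the clusters and 4.89 kb in the rest. By interval that median was 24.9 kb in 19p12, 0.86 kb in 19q13.12, 20.1 kb in 19q13.31 and 13.8 kb in 19q13.41-q13.43.

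The intervals differed among themselves in how many peaks they held. The 19p12 interval, 4.90 Mb long, was the poorest in each line except Namalwa, with a density per Mb of 9.80 in L1236, 4.90 for L428, 6.94 for L591, 10.8 for Reh and 3.88 for Namalwa. Namalwa had 3.33 per Mb in 19q13.31, which rests on 3 peaks. In 19q13.41-q13.43, 6.80 Mb long, the Hodgkin lines had 16.3 (L1236), 14.1 (L428) and 20.3 (L591) peaks per Mb, and the non-Hodgkin lines 25.6 (Reh) and 8.97 (Namalwa). The short 19q13.31 interval had 13.33, 14.4 and 20 peaks per Mb in L1236, L428 and L591, and 21.1 in Reh. The 19q13.12 interval had a density of 12 (L1236), 14.2 (L428) and 18.5 (L591) in the Hodgkin lines, and 50 (Reh) and 10.5 (Namalwa) in the non-Hodgkin lines. In Reh this was above its own 37.8 in the rest of the chromosome, and in Namalwa it equalled the 10.5 of the rest, whereas all other intervals were below the rest in every line.

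**Figure D1:**
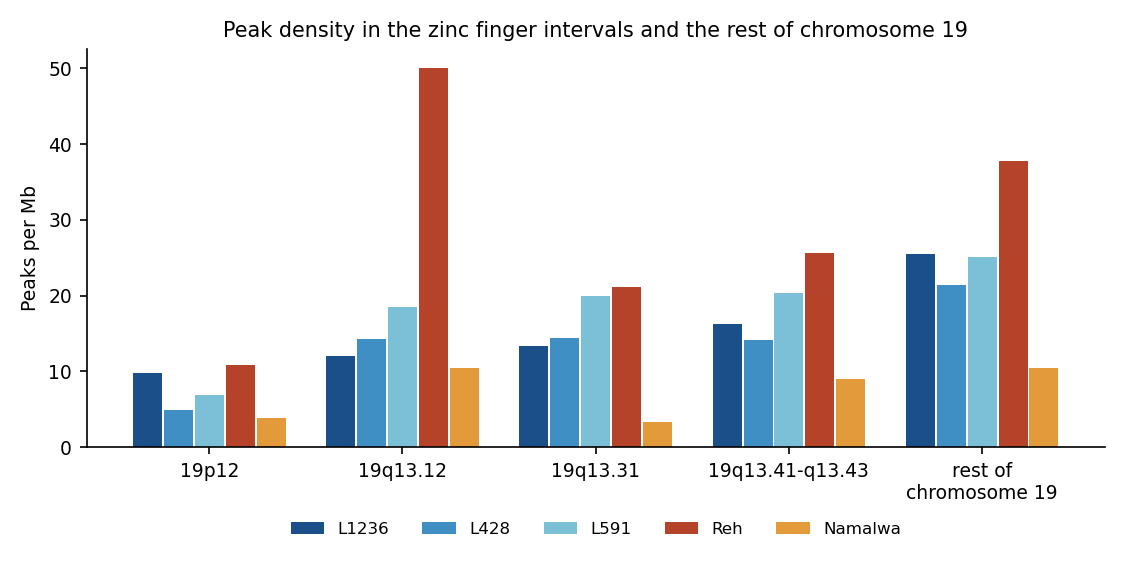
Peaks per Mb (y axis) in each of the 4 intervals and in the rest of chromosome 19 (x axis), with 1 bar per line, Hodgkin lines in blue and non-Hodgkin lines in red and orange. There is 1 library per line, so bars carry no error. Reh reaches 50 peaks per Mb in 19q13.12, above its 37.8 in the rest of the chromosome.

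The Hodgkin lines had a smaller share of their peaks in the clusters than the non-Hodgkin lines. The share of the whole list was 0.854% for L1236, 0.816% for L428 and 0.992% for L591, against 1.60% in Reh and 2.17% in Namalwa. The groups did not overlap. The exact 95% intervals, which cover counting error only, ran from 0.704 to 1.12% over the Hodgkin lines and from 1.45 to 2.58% over the non-Hodgkin lines. The mean was 0.887% ± 0.0927 (SD, n = 3) in the Hodgkin lines and 1.88% in the non-Hodgkin lines (n = 2), a difference of -0.996 percentage points (two-sided exact permutation p = 0.1 over 10 splits of the lines, the smallest possible). Without Namalwa the difference was -0.71 percentage points. Among lines digested at 6 U/ml the shares were 0.854% and 0.816% in L1236 and L428 and 1.60% in Reh, and at 12 U/ml they were 0.992% in L591 and 2.17% in Namalwa. That order had to hold at each concentration, since the groups did not overlap. In a fit of group and concentration the difference was -0.94 percentage points (exact permutation within concentration p = 0.17, the smallest that its 6 arrangements allow).

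The rest of chromosome 19 was split the same way, so the difference was not confined to the clusters. Its share of the list was 3.88% for L1236, 3.59% for L428 and 3.68% for L591, against 5.27% in Reh and 7.10% in Namalwa (difference -2.47 percentage points, exact permutation p = 0.1). The non-Hodgkin mean was 2.12 times the Hodgkin mean in the clusters and 1.66 times in the rest. These ratios depend on list length. Cut to the 5760 highest-scoring peaks, L1236, L428 and L591 had 1.28%, 1.34% and 1.49% in the clusters, against 2.40% in Reh and 2.17% in Namalwa. In the rest they had 4.83%, 4.77% and 5.56%, against 7.57% and 7.10%. Counted as a share of chromosome 19 peaks, with the whole lists, the clusters took 18.0% in L1236, 18.5% in L428 and 21.2% in L591, against 23.3% in Reh and 23.4% in Namalwa. This difference of -4.08 percentage points reached an exact permutation p of 0.2 (two-sided, 10 splits). The log2 density ratio of clusters over rest was -0.95, -0.91 and -0.66 in L1236, L428 and L591 and -0.49 and -0.48 in Reh and Namalwa (difference -0.36, exact permutation p = 0.2). In both measures the groups did not overlap. With the 5760 highest-scoring peaks of each list the differences were -2.37 percentage points and -0.20, and with the upper 50% of each list -3.82 percentage points and -0.32, each at the smallest exact permutation p of 0.1.

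**Figure D2:**
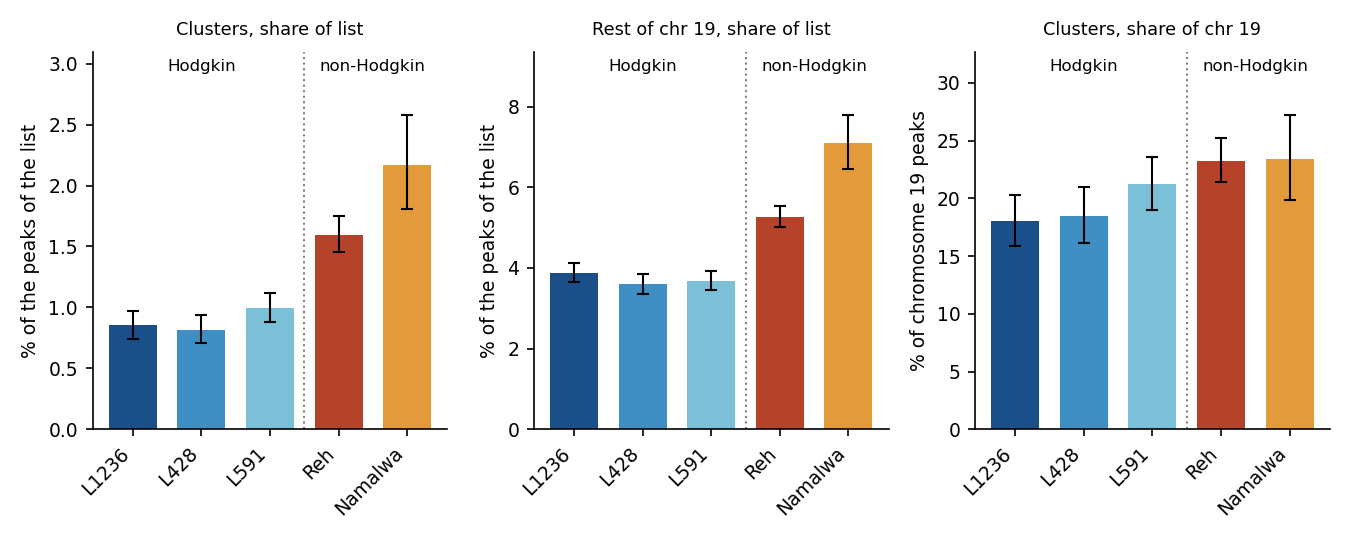
Percentage of each list's peaks that lay in the clusters (left) and in the rest of chromosome 19 (middle), and percentage of each line's chromosome 19 peaks that lay in the clusters (right). Each bar is 1 line, with Hodgkin lines left of the dotted line, and error bars are exact 95% intervals for counting error. The Hodgkin bars stay at or below 0.992% on the left and at or below 3.88% in the middle, under both non-Hodgkin bars in each.

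Taken by interval, the groups were apart in 3 of the 4, and with all peaks counted the difference was largest at 19q13.12. The share of the list there was 0.187% for L1236, 0.245% for L428 and 0.278% for L591, against 0.716% in Reh and 0.729% in Namalwa, a non-Hodgkin mean 3.05 times the Hodgkin mean. The groups were also apart in 19q13.41-q13.43, with 0.433%, 0.412% and 0.519% in L1236, L428 and L591, against 0.623% in Reh and 1.06% in Namalwa. In 19p12 the shares were 0.187%, 0.103% and 0.128% in the same Hodgkin lines, against 0.190% in Reh and 0.330% in Namalwa, so that L1236 and Reh were close together. In 19q13.31 the lines overlapped, with 0.0468%, 0.0558% and 0.0676% in the Hodgkin lines, against 0.0680% in Reh and 0.0521% in Namalwa. The exact permutation p was 0.1 for each of the first 3 and 0.7 for 19q13.31, and the Benjamini-Hochberg values over the 4 intervals were 0.13 and 0.7. The groups were also apart in the rest of chromosome 19, where the non-Hodgkin mean was 1.66 times the Hodgkin mean. Near that value were 19p12 at 1.86 times and 19q13.41-q13.43 at 1.85 times, while 19q13.31 was at 1.06 times. By interval these values were taken with the whole lists, of which that of Namalwa was short.

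Of the 200 Reh peaks at 19q13.12, 98 (49%) lay in a pair of short tracts. The window of 100 kb at 41.4 to 41.5 Mb held 56 Reh peaks, 9 Namalwa peaks and 2 L428 peaks, and none of L1236 or L591. These peaks formed 1 tract at 41451131 to 41492790, 41.7 kb long, of which Reh peaks covered 78.4%, with a median of 690 bp between neighbouring peak centres. The second tract, at 42451481 to 42486440, was 35.0 kb long and held 42 Reh peaks, which covered 48.8% of it at a median spacing of 760 bp, with 3 Namalwa peaks, 1 L428 peak and 1 L591 peak. The tracts make up 0.462% of the length of the clusters and held 21.97% of the 446 Reh cluster peaks.

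The Reh peaks of the tracts spanned nearly the whole range of strength in the list, with medians in its upper part. Peak strength was read as the percentile of the deposited score within its own list, because scores have no scale common to the lists. In the first tract the Reh percentile ranged from 5.79 to 96.9 with a median of 73.9, and widths ranged from 170 to 1610 bp. In the second tract the median percentile was 59.9, with a range from 2.07 to 92.8. For all Reh peaks of the clusters the median was 67.8, and for those of the rest of chromosome 19 it was 60.5. Only the first tract was above these values. All 12 Namalwa peaks of the tracts overlapped a Reh peak, at Namalwa percentiles between 1.44 and 72.2. The Hodgkin peaks there included an L428 peak at 42476081 to 42476640 at percentile 70.3, while the other 3 Hodgkin peaks were at percentile 4.91 or lower.

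Windows with 20 or more peaks were uncommon. Among all windows of 100 kb with a Reh peak, 52 of 9207 (0.565%) reached that number, 2 of them in the clusters and 4 in the rest of chromosome 19, and the window at 41.4 Mb ranked number 5 in the Reh list. Dense windows of Reh alone were not particular to the clusters. In the rest, the window at 8.7 to 8.8 Mb held 22 Reh peaks and 0 of each other line. No cluster window reached 20 peaks in L1236, L428, L591 or Namalwa, where 0.865%, 0.159%, 0.11% and 0.285% of windows with a peak did so. The repeat content of the tracts was not analysed here. Their borders and the limit of 20 peaks were chosen after the values had been seen.

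**Figure D3:**
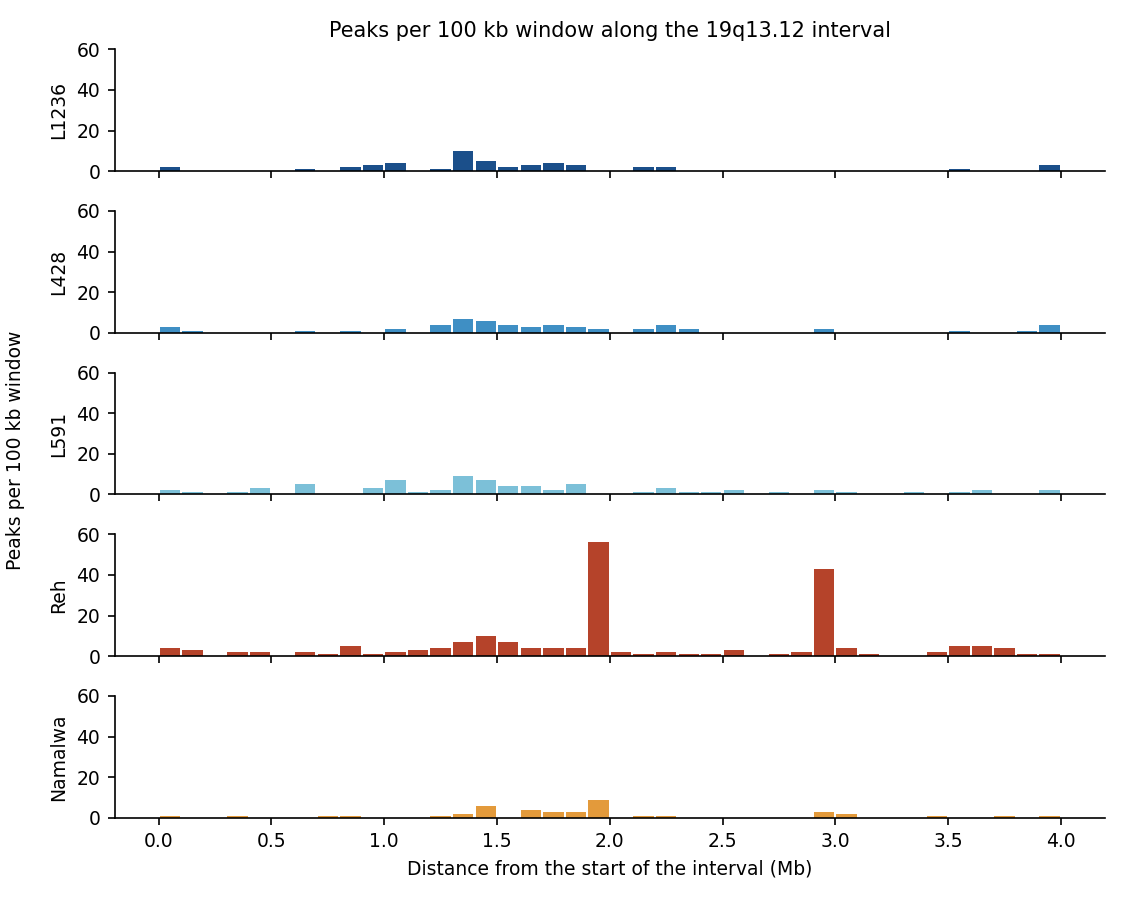
Number of peaks per 100 kb window (y axis) along the 4 Mb of the 19q13.12 interval (x axis, distance from its start), with 1 row per line on a common scale. Reh has 2 windows far above the others, with 56 and 43 peaks, and Namalwa has 9 peaks in the first of them.

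**Figure D4:**
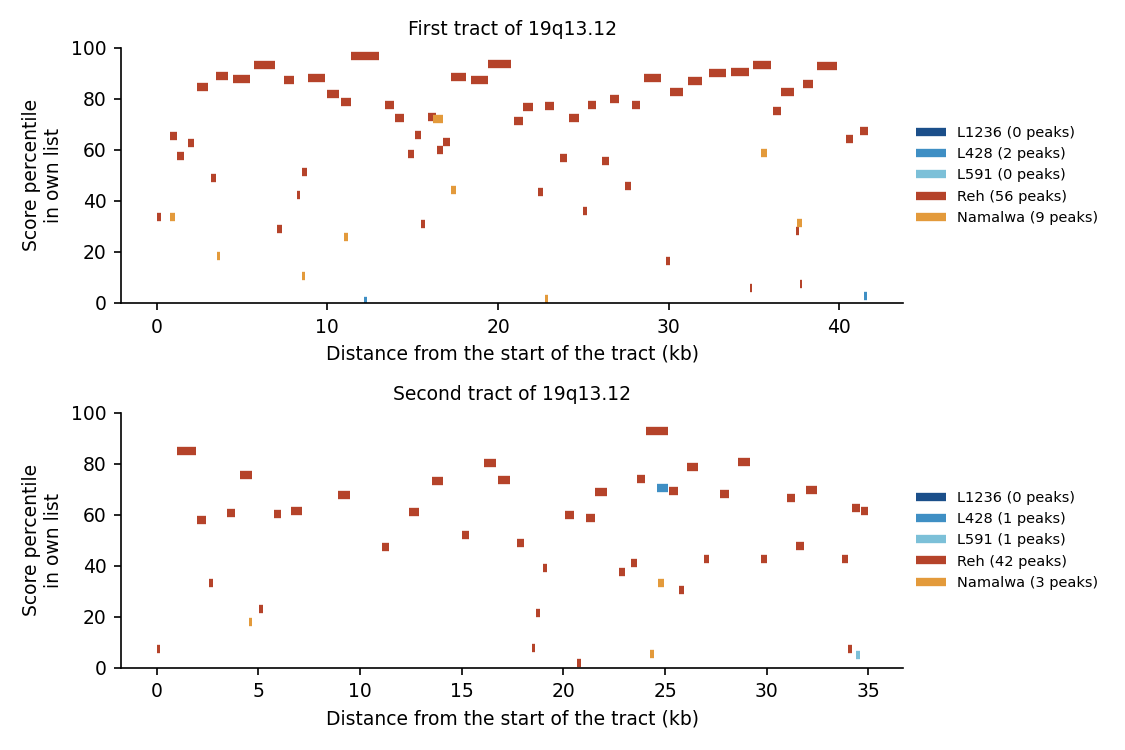
Peaks of the 2 tracts drawn as segments at their position (x axis, kb from the start of the tract) and their score percentile within their own list (y axis), coloured by line. The first tract holds 56 Reh and 9 Namalwa peaks and the second 42 Reh and 3 Namalwa peaks.

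Without the peaks of the tracts, the share of the list in the clusters was still lower in each Hodgkin line, at 0.854% in L1236, 0.803% in L428 and 0.988% in L591, against 1.25% in Reh and 1.97% in Namalwa (difference -0.73 percentage points, exact permutation p = 0.1). The share of chromosome 19 peaks taken by the clusters no longer kept the groups apart, with 18.0%, 18.3% and 21.2% in L1236, L428 and L591, against 19.1% in Reh and 21.6% in Namalwa (difference -1.23 percentage points, exact permutation p = 0.5). With all windows of 20 or more peaks of any line left out on both sides, 2 in the clusters and 8 in the rest, that share was 20.6%, 19.5% and 22.7% in L1236, L428 and L591, against 20.6% in Reh and 22.8% in Namalwa (difference -0.76 percentage points, exact permutation p = 0.6). The 19q13.12 density without the tracts was 12.2, 13.8 and 18.6 peaks per Mb in L1236, L428 and L591, and 26.0 in Reh and 7.65 in Namalwa. As a share of the list this was 0.187%, 0.232% and 0.274% in the same Hodgkin lines, against 0.367% in Reh and 0.522% in Namalwa, and the groups still did not overlap. The non-Hodgkin mean there was then 1.92 times the Hodgkin mean, and the difference of -0.21 percentage points was smaller than the -0.39 of 19q13.41-q13.43. Because the tracts were chosen for their many Reh peaks, leaving them out had to lower the Reh values of the clusters.

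With all windows counted, open sites common to all lines, and those of a single line, took shares of the cluster regions close to those in the rest of the chromosome. Regions with a peak in all 5 lines made up 67 of 568 cluster regions (11.8%, exact 95% interval 9.26 to 14.7), against 11.9% in the rest of chromosome 19 and 5.12% over all 59212 merged regions. They lay mainly in 19q13.41-q13.43, with 39, and in 19q13.12, with 19, whereas 19p12 held 7 and 19q13.31 held 2. Regions with a peak in 1 line alone made up 310 (54.6%), against 53.7% in the rest and 62.9% over all merged regions.

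The shared regions ranked high in every list. The median percentile of the 67 regions was 88.2 for L1236, 85.6 for L428, 92.6 for L591, 93.5 for Reh and 70.8 for Namalwa. For such regions in the rest of the chromosome, the medians of these lines were 83.2, 87.4, 90.4, 93.6 and 66.7. The region with the highest value of its lowest percentile lay near the end of the long arm, at 63775621 to 63777200, with percentiles of 99.1 (L1236), 99.4 (L428) and 99.7 (L591) in the Hodgkin lines, and 99.5 (Reh) and 97.1 (Namalwa) in the non-Hodgkin lines.

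Of the other leading shared regions, 5 were also in 19q13.41-q13.43, at 59332121 to 59333390, 60541761 to 60543090, 59385061 to 59387040, 57384501 to 57385640 and 59354571 to 59355860. The region starting at 59385061 was 1980 bp wide. Single cluster peaks of 1500 bp or more numbered 7 in L591, 3 in Reh, 1 in Namalwa and 0 in L1236 and L428. The remaining 4 were in 19q13.12, at 40758231 to 40758690, 41236511 to 41238370, 39541801 to 39542560 and 41297351 to 41298470. The lowest percentile over the 5 lines was between 86.0 and 96.9 in these 9 regions.

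Regions of both non-Hodgkin lines and no Hodgkin line numbered 22 (3.87% of cluster regions, exact 95% interval 2.44 to 5.81), against 1.6% in the rest of chromosome 19 and 1.04% over all merged regions. Of these, 14 were in 19q13.12, 4 in 19p12, 4 in 19q13.41-q13.43 and 0 in 19q13.31. The tracts held 10 of the 22. With the windows of 20 or more peaks left out on both sides, the class made up 12 of 471 cluster regions (2.55%, 1.32 to 4.41), against 31 of 1836 in the rest (1.69%, 1.15 to 2.39). The window at 41.4 to 41.5 Mb held 9, and the next window, at 20 to 20.1 Mb, held 2. Since nearly all Namalwa cluster peaks overlapped a Reh peak, this class is close to the Namalwa sites without a Hodgkin peak.

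The leading region of this class, in the first tract at 41467021 to 41467900, had percentiles of 72.7 in Reh and 72.2 in Namalwa. Outside the tracts, the leading regions were at 43230591 to 43231340 (percentiles 91.7 in Reh and 65.4 in Namalwa) and at 42901851 to 42902750 (86.4 in Reh and 60.03 in Namalwa), both in 19q13.12. In 19q13.41-q13.43 the region at 62884851 to 62885510 had percentiles of 92.1 in Reh and 52.0 in Namalwa, and regions at 59084901 to 59085350 and 57765001 to 57765540 followed. The remaining named regions were at 41486061 to 41487140, 41468381 to 41469270 and 41451881 to 41452300 in the first tract and at 20636111 to 20636410 in 19p12. Over all 22 regions the median percentile was 80.5 in Reh and 29.0 in Namalwa, close to the 80.0 and 28.7 of the same class in the rest.

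Regions of all 3 Hodgkin lines and neither non-Hodgkin line numbered 12 (2.11%, exact 95% interval 1.10 to 3.66), against 2.86% in the rest of chromosome 19 and 4.33% over all merged regions. They were spread over the intervals, with 4 in 19q13.12, 4 in 19q13.41-q13.43 and 2 in each of the others, and no window of 100 kb held more than 2. The leading one, at 40587781 to 40588480 in 19q13.12, had percentiles of 92.5 (L1236), 92.1 (L428) and 94.0 (L591). Another in 19q13.12, at 40895321 to 40896350, had percentiles of 95.0, 73.0 and 95.0 in the same lines. In 19p12 the region at 19569491 to 19570110 had 82.5, 74.3 and 89.6. Regions at 48961011 to 48961790 in 19q13.31 and 63691811 to 63692950 in 19q13.41-q13.43 came next, with a lowest percentile of 53.1 and 44.7. The other 5 named regions had a lowest percentile between 6.26 and 29.3.

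**Figure D5:**
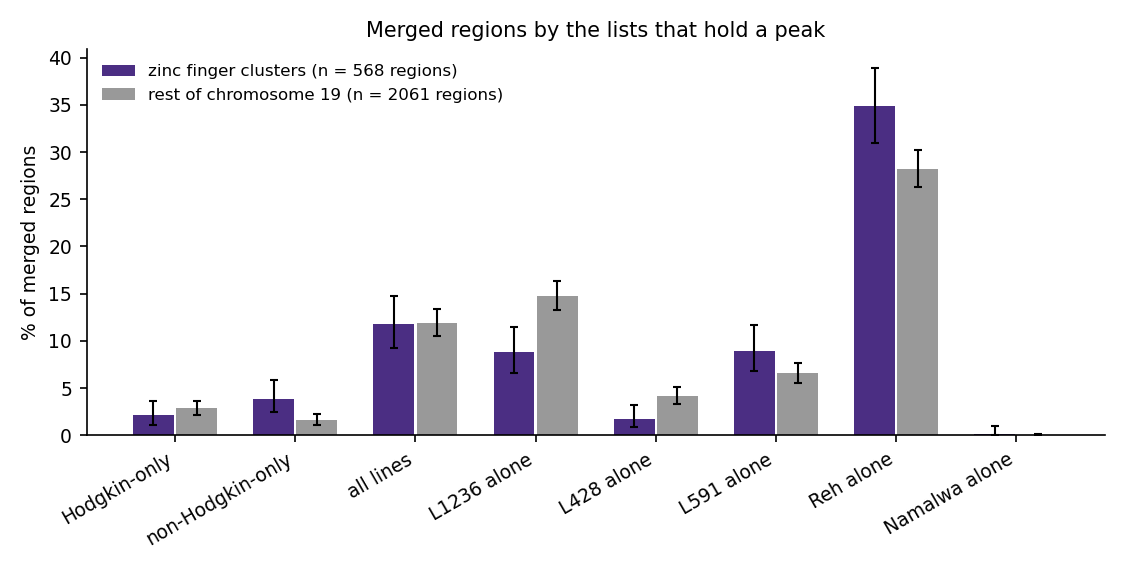
Percentage of merged regions (y axis) in each class (x axis), for the clusters (purple) and the rest of chromosome 19 (grey), with exact 95% intervals for counting error. Regions of all lines make up 11.8% in the clusters and 11.9% in the rest, while regions of Reh alone make up 34.9% and 28.2%.

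Regions of a single line were mainly those of Reh, and many of these lay in the tracts. Reh alone had 198 cluster regions (34.9%, exact 95% interval 30.9 to 38.9), against 28.2% in the rest of chromosome 19 and 21.5% over all merged regions. The tracts held 82 of them. With the windows of 20 or more peaks left out on both sides, the share was 24.6% in the clusters (20.8 to 28.8), against 29.1% in the rest (27.1 to 31.3). L1236 alone had 50 (8.80%, 6.60 to 11.4), against 14.8% in the rest and 19.8% over all merged regions. Once the windows of 20 or more peaks were left out, the L1236 shares were close, at 10.6% in the clusters and 11.7% in the rest. L428 alone had 10 (1.76%, 0.847 to 3.21), against 4.12% in the rest and 9.02% over all merged regions. L591 alone had 51 (8.98%, 6.76 to 11.6), against 6.55% and 12.5%, and Namalwa alone had 1, against 0 in the rest and 0.0608% over all merged regions. These intervals cover counting error over regions of the same 5 libraries, and the differences between clusters and rest were not tested.

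The strongest Reh regions without a peak in another line were at 41470571 to 41471890 and 41456831 to 41458070 in the first tract, at percentiles 93.7 and 93.3, and at 59827651 to 59828840 in 19q13.41-q13.43, at 93.3. The strongest of L1236 alone were narrow, 270 and 150 bp wide, and lay beside the centromere at 24317891 to 24318160 and 24201541 to 24201690, at percentiles 90.4 and 88.2. In the last 1 Mb of 19p12, from 23.4 to 24.4 Mb, L1236 had 20 peaks, against 6 (L428), 7 (L591), 8 (Reh) and 2 (Namalwa) in the other lines. There 13 regions were of L1236 alone, against 2 of L428 alone, 4 of L591 alone and 0 of Reh or Namalwa alone. This was not particular to 19p12. Across the centromere, in the rest, L1236 had 67 peaks from 32 to 33 Mb, against 12 (L428), 12 (L591), 13 (Reh) and 13 (Namalwa). Of the regions there, 65 were of L1236 alone. Only the L1236 list lacks the mark qcTrimmed, and a link with these peaks was not tested. The next strongest region of L1236 alone, at 41675481 to 41676110, was at percentile 87.0. The strongest regions of L591 alone were at 62476811 to 62477700 (percentile 89.9), 23502311 to 23503050 (79.6) and 59810051 to 59810670 (77.9). Those of L428 alone were at 58732871 to 58733330, 43446961 to 43447400 and 58749351 to 58749720, at 61.4, 51.5 and 48.7. The only Namalwa region of this kind, at 60316251 to 60316410, ranked at percentile 0.859.

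Overlap between pairs of lists was similar in the clusters and in the rest for most pairs. By the Jaccard index over bases, L428 and L591 were the most alike in the clusters at 0.412, against 0.446 in the rest. L1236 with L428 followed in the clusters at 0.397, against 0.342 in the rest, and L1236 with L591 reached 0.360, against 0.333. L591 with Reh had 0.348 in the clusters and 0.412 in the rest, the largest of the 10 differences at -0.0639. Of the Reh cluster peaks, 44.2% overlapped an L591 peak, against 50.5% in the rest, and 32.7% an L428 peak, against 40.0%. Without the tracts these cluster shares were 56.3% in L591 and 41.1% in L428, above those of the rest. Because the tracts hold many Reh and few Hodgkin peaks, leaving them out had to raise these shares. Of the Namalwa cluster peaks, 76.8% overlapped an L591 peak, against 89.2% in the rest, and 66.4% an L428 peak, against 78.5%. Without the tracts the shares of Namalwa cluster peaks were 85.0% in L591 and 72.6% in L428. These values are given as descriptions, since pairs share lines.

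Differences in the width and strength of peaks between the clusters and the rest were small and varied in sign among the lines. The median width was 350 bp for L1236, 380 for L428, 510 for L591, 390 for Reh and 300 in Namalwa for cluster peaks, against 340, 340, 505, 370 and 310 bp in the rest. The mean difference of 13 bp gave a two-sided exact sign-flip p of 0.25 over the 5 lines. The median score percentile was 58.6 (L1236), 67.4 (L428), 61.1 (L591), 67.8 (Reh) and 50.7 (Namalwa) in the clusters, against 56.9, 58.1, 60.6, 60.5 and 54.4 in the rest. The mean difference of 2.98 percentile points gave an exact sign-flip p of 0.3125.

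Because the intervals were set by round positions, the regions nearest to their borders were compared. At the start of 19p12 the first region inside, at 19562941 to 19563400, had peaks in L1236 and L591, and the last outside, at 19487741 to 19488360, had peaks in 4 lines. At its end the nearest regions on either side, at 24392971 to 24393120 and 24400501 to 24400700, were narrow and of L1236 alone, at percentiles 20.3 and 8.80. At the end of 19q13.12 the regions on both sides, at 43498291 to 43498860 and 43517961 to 43518390, had peaks in all 5 lines. At the other borders the region inside had a peak in 1 line, and the one outside, where there was one, had peaks in 1 to 4 lines.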

How the data were processed

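The submitters' processing notes name Bowtie 1.00 and the hg18 build. The authors elongated the reads, put them in 10 bp bins and listed peaks for each library separately, per the columns of the deposited files. All lists except that of L1236 carry the mark qcTrimmed. Neither the depth nor the caller with its cut-off is given in the sources used here, so no floor for absent peaks can be given. The deposited score is the authors' peak area, a summed signal with no stated scaling to depth, and was used only as a percentile within its list.

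Peaks on chromosomes 1 to 22 and X were used, with 1-based inclusive positions. Peaks of any line that shared at least 1 bp were joined to a merged region, and a region's percentile in a line is that of its highest-ranking peak there. Groups followed the lymphoma type in the labels, and replicate numbers only name the lines. Exact permutation tests over lines were two-sided, their p-values reflect the spread among lines, and neither design can reach 0.05 (smallest p 0.1 over 10 splits and 0.063 over 32 sign patterns). Shares have exact Clopper-Pearson intervals at 95%, which cover counting error only. The named regions are the 10 of each class with the highest value of the lowest percentile, the 3 strongest of each line alone, the longest peak-free stretches, the regions at the borders and the windows of 100 kb with the most regions of a class. The intervals, classes and tests were chosen with earlier results of these data known. Sequence and genes of hg18 were not used here, so no sequences are shown.

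Alternatives covered list length, borders, assignment by the peak's centre, the overlap rule, joining, peak width, the length of the rest, dense windows, DNase concentration and each line left out. The counting in the clusters was tested on lists simulated from 59202 sites on all chromosomes, where 100% of the counts planted in the clusters were recovered. Neighbouring simulated sites stood too far apart to merge, so the joining of closely spaced peaks was not tested. The tools were scipy 1.17.1, numpy 2.4.6 and pandas 2.3.3 under Python 3.11.15, with matplotlib 3.10.9 for plots.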

Additional observations from a re-analysis of the deposited data

How the results depend on the processing

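Over 139 combinations of a result and an alternative, 120 kept their direction and their side of the 0.05 threshold, or for counts stayed within 1.5 times the value reported. The lower peak density in the clusters and the smaller Hodgkin share of the list kept their sign in all 12 alternatives tried for each, but no test here could pass 0.05. The small differences in width and percentile changed sign with the highest-scoring 5760 peaks of each list (-13 bp and -0.18 percentile points) and with the upper 50% of each list (-9 bp and -0.40 percentile points), where low-scoring peaks are left out by construction. With 5760 peaks per list, 1 region was Hodgkin-only, 33 were of all lines and 94 of a single line. With the upper 50% of each list, 5 were non-Hodgkin-only, 5 Hodgkin-only, 44 of all lines and 206 of a single line. Without the tracts, and likewise without all windows of 20 or more peaks, 12 regions were non-Hodgkin-only. These alternatives and the fit with DNase concentration were chosen after the data had been seen. That fit gave -0.94, -3.78 and -2.34 percentage points for the Hodgkin difference in the cluster share of the list, in the cluster share of chromosome 19 peaks and in the share of the rest.

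Leaving out each line in turn gave -1.28 to -0.71 percentage points for the share of the list, -5.06 to -3.47 for the share of chromosome 19 peaks and -0.75 to -0.63 for the mean log2 density ratio. The count of non-Hodgkin-only regions ran from 23 to 222, with 34 without L591 and 222 without Namalwa, where a Reh peak alone is enough. Hodgkin-only regions ran from 12 to 41, with 19 without L1236, 21 without L428 and 41 without Reh. Regions of all lines ran from 67 to 96, and those of a single line from 192 without Reh to 333. The groups could not be paired with each other, since they hold different cell lines and the replicate numbers used here only name the lines. Within each line, the sign-flip tests set the clusters against the rest. The unknown depth and the short Namalwa list limit every count that needs a Namalwa peak or its absence.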
